A study of Mus musculus with 200 samples.

Results

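The genes described here are 7 that make or control cholesterol in mouse cells: Insig1, Hmgcs1, Sqle, Idi1, Fdps, Lss and Srebf2. They were taken by symbol, and each was found in all 7 expression tables, which list 25006 or 25229 genes and hold 200 libraries in all. Cholesterol is built from acetyl-CoA. Hmgcs1 makes HMG-CoA at the start of the mevalonate pathway. Idi1 isomerizes the isoprene unit isopentenyl diphosphate, and Fdps joins isoprene units into farnesyl diphosphate. Sqle and Lss oxidize and close squalene into lanosterol. Srebf2 encodes SREBP2, the transcription factor that turns these genes on when membrane sterol is low. Insig1 is both a target of SREBP2 and the protein that holds it back in the endoplasmic reticulum when sterol is plentiful. In the early embryo the primitive endoderm (PrE) becomes the yolk sac lining that handles maternal lipid, and the epiblast (Epi) forms the fetus.

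Polyadenylated RNA of Epi or PrE cells of cultured peri-implantation mouse embryos, and of embryoid bodies (EBs, aggregates of differentiating stem cells), was amplified from few cells by Smart-seq2, which copies whole transcripts. Values are TPM, an abundance scaled to transcript length and to the library's total, and the strain and the animals behind a library are not given in the sources used here. At E5.0, wild-type and Suz12 Eed double KO libraries covered Epi and PrE (n = 3 each). Suz12 and Eed are core subunits of the Polycomb complex PRC2, which methylates H3K27. Epi was also compared between wild type and GSK-J4, which blocks the demethylases of H3K27 (n = 3 each at E4.5 and at E5.0). Its dose of 50 µM, given to E3.5 blastocysts, is stated for the E5.0 design. Zbtb17, a zinc-finger transcription factor also called Miz1, was targeted in Epi at E4.5 and by dTAG protein degradation in Epi at E5.0 (n = 3 each). The treated E4.5 libraries are titled a knockout but carry a dTAG treatment label. EBs were wild type or Zbtb17 KO on days 0, 1, 2 and 3 (n = 2 each). The knockout EBs share the line name ZB11 in their titles, and whether that line is 1 clone is not given in the sources used here. The screen covered Epi at E5.0 in 10 batches, with 40 C-CRISPR knockout groups (several guides against each gene) and wild-type controls in every batch. Batch 8, with Bend3 knockouts and their controls, is titled day 6.0 but labelled E5.0.

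Between 3986 and 13512 genes reached 1 TPM in a library. The PrE controls expressed all 19 PrE markers on the list, with Elf5, a trophectoderm marker, at 0 in all 3. In the Epi controls of the same table Gata6, a PrE transcription factor, was at 0, but Elf5 was at 70.2 to 95.7 TPM and Sox2, a pluripotency factor, at 1.93 to 4.28 TPM. In screen controls other than batch 8, Elf5 was at 18.5 to 178 TPM and Sox2 at 0 to 7.39 TPM. All 10 epiblast markers averaged at least 1 TPM in the Epi controls of the Suz12 Eed table, with sums of 2072 to 3107 TPM against 254 to 290.0 TPM in PrE controls, and 8 of 10 were lower in PrE. Of 38 screen comparisons whose target has a row of its own, the target's RNA passed the test as lower in 7 and as higher in 3. RNA need not fall after a frameshift. Both Suz12 and Eed were lower in every double KO library than in every control of the same tissue, with Eed at 38.9 to 51.8 against 157 to 204 TPM in Epi and at 49.7 to 63.5 against 147 to 174 TPM in PrE. The 6 Zbtb17 E4.5 libraries, with 3986 to 4952 genes at 1 TPM, and both day 0 EB groups, with 5970 to 6983, stood apart from the rest.

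Promoter sequences are shown for the pair of genes highest in PrE, Insig1 and Hmgcs1, and for Idi1, which fell most with GSK-J4. RefSeq (GRCm38.p6, the assembly of mm10) gave windows of 250 bases before to 50 after the start for 5 of the 7 genes. Capitals mark TCACNCCAC, a form of the sterol regulatory element bound by SREBP, and CCAAT, bound by its partner NF-Y, on either strand (ATTGG is CCAAT on the other strand).
Insig1, chr5:28071162-28071461, plus strand: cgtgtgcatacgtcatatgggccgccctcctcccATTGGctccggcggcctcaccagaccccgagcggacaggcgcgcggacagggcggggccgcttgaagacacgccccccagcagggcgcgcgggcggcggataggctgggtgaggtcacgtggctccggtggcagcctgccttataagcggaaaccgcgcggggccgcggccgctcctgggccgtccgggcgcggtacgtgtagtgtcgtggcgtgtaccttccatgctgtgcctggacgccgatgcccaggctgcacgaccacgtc
Hmgcs1, chr13:119690101-119690400, plus strand: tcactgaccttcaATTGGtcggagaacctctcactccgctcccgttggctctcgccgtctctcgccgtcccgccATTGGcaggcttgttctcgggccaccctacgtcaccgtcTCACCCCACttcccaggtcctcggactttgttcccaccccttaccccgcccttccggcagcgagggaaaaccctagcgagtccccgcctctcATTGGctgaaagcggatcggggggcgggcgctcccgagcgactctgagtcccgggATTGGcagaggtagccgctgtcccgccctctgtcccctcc
Idi1, chr13:8885356-8885655, plus strand: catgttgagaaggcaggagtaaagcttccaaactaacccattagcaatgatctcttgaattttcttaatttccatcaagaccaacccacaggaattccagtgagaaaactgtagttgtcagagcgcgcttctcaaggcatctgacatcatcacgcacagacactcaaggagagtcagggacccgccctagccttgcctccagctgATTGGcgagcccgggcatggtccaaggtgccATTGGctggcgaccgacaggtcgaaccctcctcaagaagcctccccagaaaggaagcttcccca

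Of the 5 windows, 1 held TCACNCCAC, that of Hmgcs1, with its first base 137 bases before the start. This motif is in 1.24% of the 32851 promoters in the table. All 5 held CCAAT, which is in 37.4% of promoters, and Hmgcs1 had 4 matches and Idi1 had 2. All 5 also held GGGCGG, the core bound by Sp1, which is in 35.7% of promoters. The 3 motifs do not overlap one another in these windows. A match is a description of letters, and other forms of the sterol element were not searched. The genes lie at chr5:28071363-28078662 (Insig1), chr13:119690379-119708260 (Hmgcs1), chr15:59315077-59331192 (Sqle), chr13:8885501-8892451 (Idi1), chr3:89093588-89101959 (Fdps, minus strand), chr10:76531588-76557138 (Lss) and chr15:82147181-82205379 (Srebf2) in GENCODE vM21 on mm10, on the plus strand except Fdps.

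Insig1 and Hmgcs1 were far higher in PrE than in Epi, while Srebf2, Idi1 and Fdps were lower. Insig1 stood at 4226, 3231 and 5399 TPM in the 3 PrE control libraries and at 272, 168 and 334 TPM in the 3 Epi controls. Every PrE library was far above every Epi library. The mean was 17.7-fold higher, with a log2 difference of 4.17 on the log2(TPM + 1) scale (SE 0.283, limma adjusted p = 1.83e-08). Hmgcs1 was at 596, 516 and 724 TPM in PrE against 115, 147 and 182 TPM in Epi, again without overlap. It was 4.33-fold higher in PrE (log2 2.12, SE 0.263, limma adjusted p = 8.72e-06). PrE replicates 1 and 2 correlated at 0.995, against at most 0.979 for other replicate pairs of the table, and were averaged to 1 library in the main tests. PrE controls therefore count as n = 2 there. Fits with the replicate number as a block, and a setting that kept near-identical libraries apart, counted these replicates as 2 libraries.

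The sterol regulator itself went the other way. Srebf2 was at 1.12, 0.913 and 0.551 TPM in PrE and at 3.32, 6.33 and 3.9 TPM in Epi, close to the 1 TPM filter in PrE. It entered this test only through the Epi libraries. The groups did not overlap, and the difference was -1.60 on the log2 scale (SE 0.358, limma adjusted p = 0.0015). Idi1 was at 55.6, 44.1 and 71.2 TPM in PrE against 88.8, 121 and 105 TPM in Epi (log2 -0.79, SE 0.223, limma adjusted p = 0.00715). Fdps, at 275, 356 and 260.5 TPM in PrE and 436, 366 and 391 TPM in Epi, differed by -0.47 (SE 0.179, limma adjusted p = 0.0372). For Sqle (46.8 to 52.1 TPM in PrE, 60.5 to 99.3 TPM in Epi) the limma adjusted p was 0.0855, and for Lss (4.83 to 5.93 and 5.01 to 13.8 TPM) it was 0.149. Thus 5 of 7 genes passed the adjusted p threshold of 0.05, 2 as higher and 3 as lower, in a comparison in which 56.4% of 11748 tested genes passed, 18.5% as higher and 37.9% as lower. The median of all tested genes was -0.46, so Idi1 and Fdps lay near the shift of all genes, and quantile normalization moved that median to -0.11. The Fdps call was lost without Epi control 1 or 3 or without PrE control 1 or 3 (limma adjusted p 0.0616 to 0.266), and the Idi1 call was lost after quantile normalization (-0.46, limma adjusted p = 0.0513). Without Epi control 3, Sqle (-0.79, limma adjusted p = 0.0486) and Lss (-1.18, limma adjusted p = 0.026) also passed as lower. Sqle did too with the replicate block (-0.64, limma adjusted p = 0.0154), a fit that kept PrE controls 1 and 2 apart. Keeping them apart without a block also passed Sqle (-0.64, limma adjusted p = 0.0376).

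Other sterol genes were also split between the tissues. Of the other 16 synthesis enzymes, 5 were higher and 2 lower in PrE, with a median of 0.29. Sc5d, which makes a late double bond of cholesterol, was 19.6-fold higher at 506 to 657 against 27.9 to 31.4 TPM (log2 4.24, limma adjusted p = 1.62e-10). Ebp, the sterol isomerase, was 10.3-fold higher, at 205 to 219 against 18.2 to 23.5 TPM. Mvd, the mevalonate diphosphate decarboxylase, was 5.48-fold lower and Erg28 1.85-fold lower. Among 8 uptake and transport genes, 5 were higher and 2 lower. Npc2 and Npc1, which move cholesterol out of lysosomes, were 3.19-fold and 6.26-fold higher, and Stard4, a cholesterol carrier, 3.97-fold higher. Scarb1, the HDL receptor, was 7.55-fold lower. Soat1, which esterifies cholesterol for storage, was 11.9-fold higher, while Abcg1, a sterol exporter, was 17.2-fold lower and Nr1h2, encoding LXR-beta, 4.74-fold lower. Of 9 genes of SREBP control, Erlin2 was higher and Mbtps1, the site-1 protease of SREBP, lower.

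**Figure D1:**
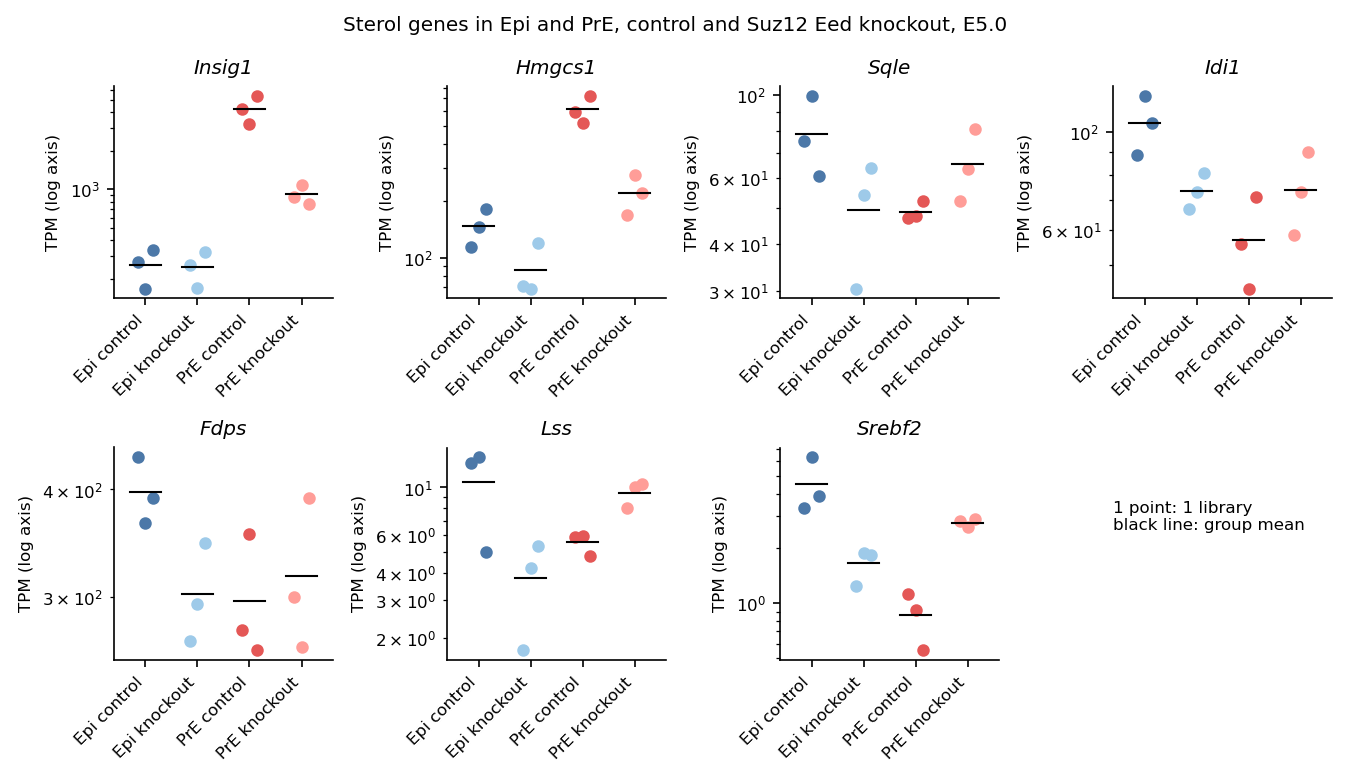
TPM on a log axis of each of the 7 genes in the 12 libraries of the Suz12 Eed table, by tissue and genotype. Points are libraries and black lines group means over all 3 libraries; each panel has its own axis. Insig1 and Hmgcs1 are highest in PrE controls and lower in PrE knockouts, and Srebf2 is lowest in PrE controls.

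With Suz12 and Eed knocked out, Insig1 and Hmgcs1 fell in PrE, and Srebf2, near the filter, passed as higher there. Insig1 fell to 879, 1088 and 773 TPM, below all 3 PrE controls (5-fold lower, log2 -2.31, SE 0.283, limma adjusted p = 6.76e-05). It was still above every Epi library of the table. Hmgcs1 fell to 169, 274 and 222 TPM (2.89-fold lower, log2 -1.54, SE 0.263, limma adjusted p = 0.000736). Srebf2 was at 2.82, 2.61 and 2.89 TPM, above all 3 controls (log2 1.09, SE 0.358, limma adjusted p = 0.0351). It reached the 1 TPM filter for this test only through the knockout libraries, where it is high. Sqle at 51.9 to 81.1 TPM, Idi1 at 58.4 to 89.9 TPM, Fdps at 263 to 391 TPM and Lss at 8.03 to 10.4 TPM had positive estimates of 0.13 to 0.71 that did not pass.

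The 3 calls stand against 26.6% of 11354 genes called. The 2 lower ones stand against 5.18% called lower, and that of Srebf2 against 21.4% called higher. The median of all tested genes was 0.40 in this comparison and 0.02 after quantile normalization, and the share of calls that were higher moved from 80.5% to 55.8%. Under that scaling Insig1 and Hmgcs1 kept their calls, and Srebf2 did not (0.57, limma adjusted p = 0.22). The Srebf2 call was also lost without PrE control 3 or any 1 of the 3 knockout libraries (limma adjusted p 0.0651 to 0.203) and in a fit of the PrE libraries alone (0.0569). The summed trophectoderm markers were higher with the knockout, at 2248 to 2332 TPM against 641 to 954 TPM in PrE controls, and PrE markers were at 4173 to 4741 and 5518 to 6340 TPM. Their part in the result was not tested.

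Other pathway genes moved in both directions in the PrE knockout. Sc5d was 2.6-fold lower, at 207 to 242 TPM, and Soat1 2.4-fold lower. Higher genes were Mvd 2.89-fold, Erg28 3.05-fold, Mvk 2.68-fold, Scarb1 4.36-fold and Nr1h2 2.34-fold. The tissue and knockout comparisons share the PrE control libraries, so opposite directions in them are not independent. Of the other synthesis enzymes 4 of 16 were higher and 2 lower, and of the uptake genes 3 of 10 were higher. All 9 genes of SREBP control, Scap and Insig2 among them, and all 11 genes of fatty acid synthesis failed to pass.

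In Epi the same knockout passed for 1 of 7 genes, Hmgcs1, at 71, 68.5 and 119 TPM against 115, 147 and 182 TPM in controls (log2 -0.79, SE 0.236, limma adjusted p = 0.0477). One knockout library, at 119 TPM, overlapped the controls. The background was 9.13% of 11250 genes called, 4.65% as lower. All 7 estimates were negative, with a median of -0.69 against -0.13 over all tested genes. Lss, at 1.75, 4.25 and 5.36 against 13, 13.8 and 5.01 TPM, had a limma adjusted p of 0.0571, and Srebf2, at 1.24, 1.89 and 1.84 against 3.32, 6.33 and 3.9 TPM, one of 0.0582. Insig1 was at 257, 171 and 322 against 272, 168 and 334 TPM, nearly the same set of values. The Hmgcs1 call was lost without Epi control 2 or 3 or without knockout library 1 or 2 (limma adjusted p 0.116 to 0.159), and without Epi control 3 Lss passed as lower (-1.68, limma adjusted p = 0.019). Same-numbered Epi libraries deviated together. With the replicate number as a block, 2 genes passed as lower, Hmgcs1 and Idi1 (-0.50, limma adjusted p = 0.0377). Summed trophectoderm markers were at 1642 to 1773 TPM in Epi controls and 6361 to 7393 TPM in Epi knockouts. Epiblast markers fell in 6 of 10, with sums of 2072 to 3107 and then 981 to 1278 TPM, and the part of either in the result was not tested.

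The effect of the knockout differed between the tissues for 3 of 7 genes, against 19.1% of 13172 genes, 15% with a positive and 4.16% with a negative difference. The change in PrE minus the change in Epi was -2.27 for Insig1 (SE 0.379, limma adjusted p = 0.0012). For Srebf2 it was 2.12 (SE 0.48, limma adjusted p = 0.00728). For Lss it was 1.97 (SE 0.585, limma adjusted p = 0.0285). Hmgcs1 was lower with the knockout in both tissues and its difference did not pass (-0.75, limma adjusted p = 0.154). The Lss difference was lost when Epi control 1 or 2, Epi knockout 1, PrE control 3 or PrE knockout 2 or 3 was left out (limma adjusted p 0.0578 to 0.125). Without Epi knockout 3 the Sqle difference passed (1.27, limma adjusted p = 0.0402), and without PrE knockout 1 the Idi1 difference did (0.94, limma adjusted p = 0.047). With the replicate block 5 of 7 passed, Sqle (1.08, limma adjusted p = 0.0252) and Idi1 (0.87, limma adjusted p = 0.0187) with the 3 above. That fit kept PrE controls 1 and 2 apart. Keeping them apart without a block also passed Sqle (1.08, limma adjusted p = 0.0379) and Idi1 (0.87, limma adjusted p = 0.0347). The median of all genes was 0.45 here and 0.04 after quantile normalization, which ended the Lss call (1.41, limma adjusted p = 0.0914).

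GSK-J4 lowered 4 of the 7 genes in Epi at E5.0, against 28.3% of 10681 genes called and 11.7% called lower. The largest fall was in Idi1, the isopentenyl diphosphate isomerase. It was at 139, 122 and 124 TPM in controls and at 17.9, 26.9 and 28.7 TPM with GSK-J4 (5.25-fold lower, log2 -2.37, SE 0.209, limma adjusted p = 0.000195). Fdps, the next enzyme, was at 405, 527 and 511 TPM and then 158, 188 and 156 TPM (2.88-fold lower, log2 -1.52, SE 0.133, limma adjusted p = 0.000195). In neither gene did the groups come near each other.

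Sqle, the squalene epoxidase, was at 128, 121 and 109 TPM in controls and 45.1, 70.6 and 68.1 TPM with GSK-J4 (log2 -0.98, SE 0.197, limma adjusted p = 0.00866). Hmgcs1 was at 64.3, 65.1 and 63.7 TPM and then 52.5, 22.3 and 26.8 TPM (log2 -1.0, SE 0.306, limma adjusted p = 0.044). Treated library 1 lay between the controls and the other treated libraries for Hmgcs1. Insig1 was at 157 to 175 TPM and 107 to 145 TPM (log2 -0.39, limma adjusted p = 0.0737), and Lss at 18.1 to 21.3 and 10.1 to 21.6 TPM (limma adjusted p = 0.329). Srebf2, at 4.63 to 6.89 and 4.98 to 6.92 TPM, had an estimate of 0.13 (limma adjusted p = 0.841). The Idi1 and Fdps calls held in every setting run. The Hmgcs1 call was lost when any control, or treated library 2 or 3, was left out (limma adjusted p 0.0846 to 0.152), and the Sqle call without control 1 (0.053) or control 2 (0.0514). Without treated library 1 Insig1 passed as lower (-0.49, limma adjusted p = 0.0293). Quantile normalization moved the median of all genes from 0.12 to -0.14 and the share of calls that were higher from 58.8% to 44.9%, and Insig1 then passed as lower too (-0.47, limma adjusted p = 0.0476).

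**Figure D2:**
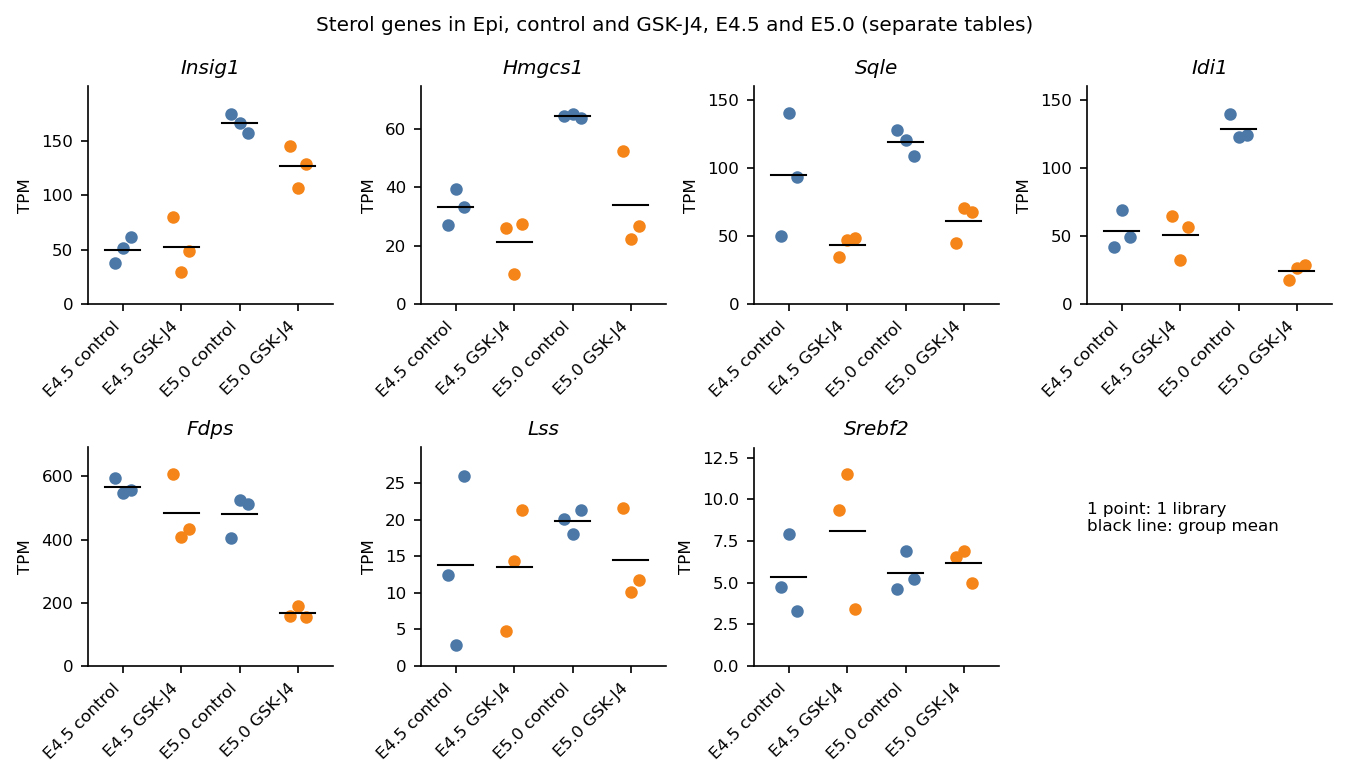
TPM of each of the 7 genes in control and GSK-J4 libraries at E4.5 and at E5.0. Points are libraries, black lines group means, axes start at 0 and the stages come from separate tables. Insig1, Hmgcs1, Sqle, Idi1 and Fdps of the treated E5.0 libraries lie below all E5.0 controls, and the E4.5 groups overlap for every gene but Sqle.

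In the treated E5.0 Epi 7 of the other 16 enzymes were lower, 2 higher and 7 did not pass, with a median of -0.83 against 0.12 over all tested genes. Mvd was 3.06-fold lower, Acat2 2.19-fold, Fdft1 (squalene synthase) 1.92-fold and Msmo1 1.65-fold lower. Ebp was 2.88-fold and Sc5d 2.02-fold higher. Among uptake genes 3 of 7 were higher and 0 lower: Npc1 7.09-fold, Stard4 2.75-fold and Npc2 2.55-fold. Soat1 was 4.56-fold higher. Of SREBP control genes Scap, the escort of SREBP, was 3.95-fold and Erlin2 5.12-fold higher.

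PrE markers moved with this treatment. All 17 PrE markers tested were higher, and the sum of the list went from 142 to 175 TPM in controls to 2924 to 3071 TPM with GSK-J4. In controls only 8 of the 19 listed averaged at least 1 TPM, against 17 with GSK-J4. The others tested reached the filter only with the treated libraries, where they are high. Gata6 went from 0 in all 3 controls to 11.9 to 25.0 TPM. Summed trophectoderm markers were lower, at 3130 to 3288 against 4283 to 4552 TPM. Epiblast markers summed to 786 to 972 TPM with GSK-J4 and 1785 to 1838 TPM in controls, with 3 of 9 lower and 3 higher. Ebp, Sc5d, Npc1, Npc2, Stard4, Soat1 and Erlin2 were also higher in PrE than Epi controls of the other table, and Idi1, Fdps and Mvd were lower in both comparisons. Sqle, Acat2, Fdft1 and Msmo1, lower here, did not pass as lower in PrE in the main test there. Scap, higher here, did not pass there. Insig1 and Hmgcs1, both higher in PrE there, were at or below control levels here, and Srebf2, lower in PrE there, was level here. In libraries of pooled cells, fewer cells of a type and less RNA per cell cannot be told apart, and the part of PrE cells in these results was not tested.

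**Figure D3:**
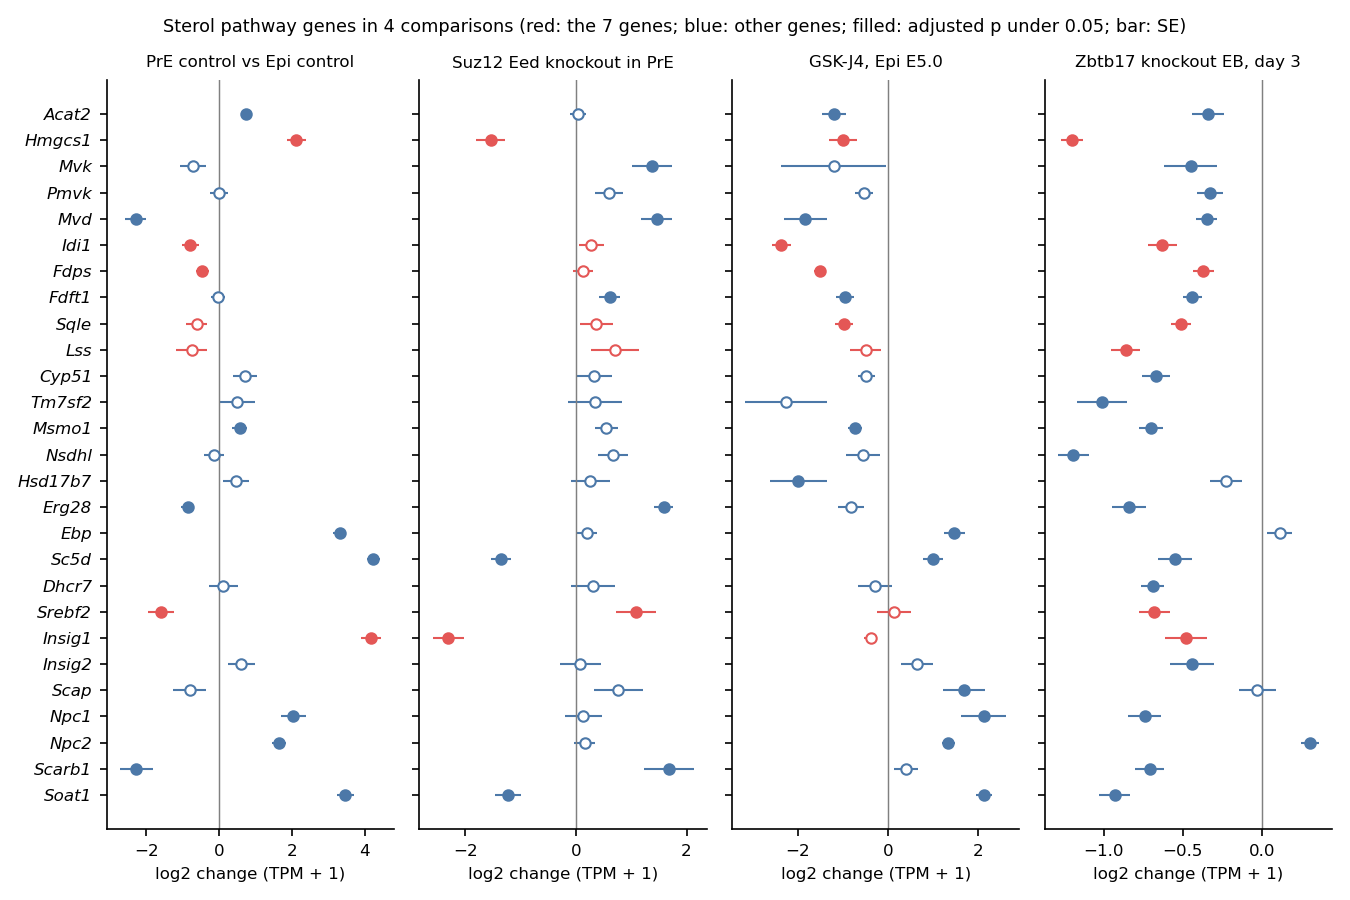
Log2 change on the TPM + 1 scale, with SE bars, of 27 sterol genes in 4 comparisons, each panel with its own x axis. Red marks the 7 genes and blue other pathway genes, filled points passed at an adjusted p of 0.05, and rows run from the first enzyme to regulators, uptake and storage. Insig1 is at 4.17 in PrE against Epi and at -2.31 in the PrE knockout, and in day 3 EBs nearly all points lie below 0.

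At E4.5 GSK-J4 passed for 0 of 7 genes by limma, with 1.15% of 9982 genes called, and 1 gene, Sqle, had an unadjusted p under 0.05. Sqle was at 50.0, 141 and 93.6 TPM in controls and 34.8, 47.6 and 48.5 TPM in treated libraries. The treated values lay just below the lowest control (log2 -1.0, SE 0.402, limma adjusted p = 0.346). Idi1, with the largest fall at E5.0, was at 42.1, 69.4 and 49.2 TPM and then 64.9, 32.2 and 56.4 TPM, and the groups overlapped. Replicates of this table correlated at only 0.846 to 0.875, and no test compared the 2 stages, which are in separate tables. None of the other 16 enzymes passed by limma.

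Zbtb17 was perturbed in 4 settings held in separate tables, and no test compared them. In Epi with dTAG at E5.0, 1 of 7 genes passed, against 11.7% of 10658 genes called and 7.2% called higher. Sqle rose from 44.6, 63.8 and 45.6 TPM to 90.9, 74.3 and 87.3 TPM (1.64-fold, log2 0.72, SE 0.182, limma adjusted p = 0.0303). All treated libraries were above all controls. The Sqle call was lost without controls 55 or 57 or treated library 1 or 3 (limma adjusted p 0.103 to 0.109), without the filter (0.0827) and after quantile normalization (0.106). Without treated library 2 Insig1, at 54.2 to 81.5 against 44.4 to 49 TPM, passed as higher (0.69, limma adjusted p = 0.0462, against 0.0984 with all libraries). Lss was at 8.74 to 26.1 against 5.42 to 7.38 TPM (limma adjusted p = 0.136). Enzymes downstream of Sqle and Lss rose with Sqle: Cyp51 2.04-fold, Msmo1 1.68-fold, Ebp 1.96-fold and Erg28 1.57-fold, which are the 4 of 16 that passed. PrE markers also rose, 6 of 14 tested, with a sum of 100.2 to 104 TPM in controls and 515 to 543 TPM with dTAG. In controls 11 of the 19 listed averaged at least 1 TPM, and 14 did with dTAG. Trophectoderm markers rose in 9 of 14 and fell in 1, and the part of either was not tested. Zbtb17 RNA itself was at 5.77 to 6.94 against 1.67 to 5.2 TPM in controls, and protein degradation need not lower RNA.

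At E4.5 limma passed 0 of the 5 genes tested for Zbtb17, and 3 had an unadjusted p under 0.05, in libraries where 0.131% of 4576 genes were called. Insig1 was at 352, 479 and 472 TPM in controls and 746, 681 and 655 TPM in the libraries titled knockout (limma adjusted p = 0.4). Hmgcs1 was at 67.9, 77.7 and 83.1 TPM and then 219, 159.8 and 206 TPM (limma adjusted p = 0.328). Neither gene's groups overlapped. Fdps was listed at 0 in all 3 controls and at 119.6, 81.3 and 126 TPM in the other group (limma adjusted p = 0.116). Fdps was at 147 to 900.1 TPM in the screen's controls, and Srebf2 and, apart from 1 library, Lss were listed at 0 in every library here. Replicates correlated at 0.657 to 0.676, and Zbtb17 was listed at 0 in all 3 controls.

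In EBs labelled Zbtb17 KO, 3 of the genes were lower than wild type on day 1 and all 7 on days 2 and 3. On day 3 all 7 were lower in the knockout, against 55.1% of 13366 genes called and 34.3% called lower. Hmgcs1 was at 188 and 188 TPM in wild type and 79.5 and 83.5 TPM in the knockout (log2 -1.20, SE 0.071, limma adjusted p = 6.33e-08). Lss, the lanosterol synthase, was at 23.3 and 26.5 against 14 and 12.6 TPM (log2 -0.86, SE 0.0899, limma adjusted p = 8.59e-06). Srebf2 was at 91.8 and 96.3 against 57.2 and 59.7 TPM (log2 -0.68, SE 0.0981, limma adjusted p = 0.000113). Both knockout libraries lay below both wild-type libraries for each gene, but the share of all genes apart in this way was not counted. Idi1 was at 71 and 65.4 against 43.7 and 43.7 TPM (log2 -0.63), Sqle at 90.6 and 86.7 against 63.4 and 60.9 TPM (log2 -0.51), Insig1 at 59.1 and 54 against 42.3 and 38 TPM (log2 -0.48) and Fdps at 307 and 309.9 against 234 and 242 TPM (log2 -0.37). The median over the 7 was -0.63, against -0.10 over all tested genes.

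On day 2 all 7 were again lower, against 42.8% of 13677 genes called and 24.9% called lower, with a median of -0.68 against -0.07. Hmgcs1 was at 134 and 133 against 63.6 and 69.4 TPM (log2 -1.0, SE 0.071, limma adjusted p = 5.65e-07), and the other 6 lay between -0.79 (Lss) and -0.49 (Insig1). On day 1, 3 were lower, Sqle at 72.6 and 68.4 against 47.4 and 53.6 TPM (log2 -0.48), Idi1 at 33.4 and 30.7 against 23.5 and 27.4 TPM (log2 -0.32) and Hmgcs1 at 81.8 and 78.6 against 68.6 and 66.6 TPM (log2 -0.24), with 36.5% of 13450 genes called and 20% called lower. Srebf2 was level on day 1, at 72.1 and 73.9 against 72.7 and 72.1 TPM. The pairs of EB libraries correlated at 0.993 to 0.995, so these p-values rest on the spread within near-identical pairs. The Insig1 calls were lost on day 2 without wild-type library 2 (limma adjusted p = 0.0624) or knockout library 1 (0.102) and on day 3 without wild-type library 1 (0.0618) or knockout library 2 (0.0652). On day 1 Hmgcs1 was lost in 3 of 4 such fits (0.0533 to 0.112) and Idi1 in 2 (0.115 and 0.141).

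Nearly the whole pathway moved with them. On day 3, 14 of the other 16 enzymes were lower and 0 higher, and on day 2, 15 were lower and 1, Ebp, higher. On day 3 Nsdhl was 2.32-fold, Tm7sf2 2.09-fold and Dhcr7 1.63-fold lower. For uptake, Stard4 was 2.35-fold and Npc1 1.72-fold lower, Npc2 was higher, and 6 of 10 uptake genes in all were lower. Fatty acid genes linked to SREBP1 fell too, 10 of 11, among them Fads2 2.39-fold, Scd1 2.37-fold and Scd2 1.88-fold. Of 9 tested genes of sterol efflux, storage and LXR, 1 was higher and 3 were lower on day 3. The higher one was Abca1, an LXR target that loads HDL, 4.02-fold, at 1.87 to 2.50 against 0.505 to 0.582 TPM. It entered this test only through the knockout libraries. Srebf1 was 1.2-fold lower. Trophectoderm markers were higher in knockout EBs on days 1 to 3, 10 of 12 tested on day 3 with 2 lower, with day 3 sums of 419.6 to 439 against 249 to 252 TPM, and Elf5 was at or near 0 throughout. On day 3, 10 of 17 PrE markers were lower and 4 higher, 6 of 10 epiblast markers lower and 3 higher, and 7 of 11 decidua and stromal markers higher and 2 lower. On day 2, 12 of 18 PrE markers were lower and 8 of 10 stromal markers higher. The part of these cell types in the result was not tested. Zbtb17 RNA was at 13.4 to 13.7 in the knockout against 17.3 to 18.0 TPM on day 3.

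**Figure D4:**
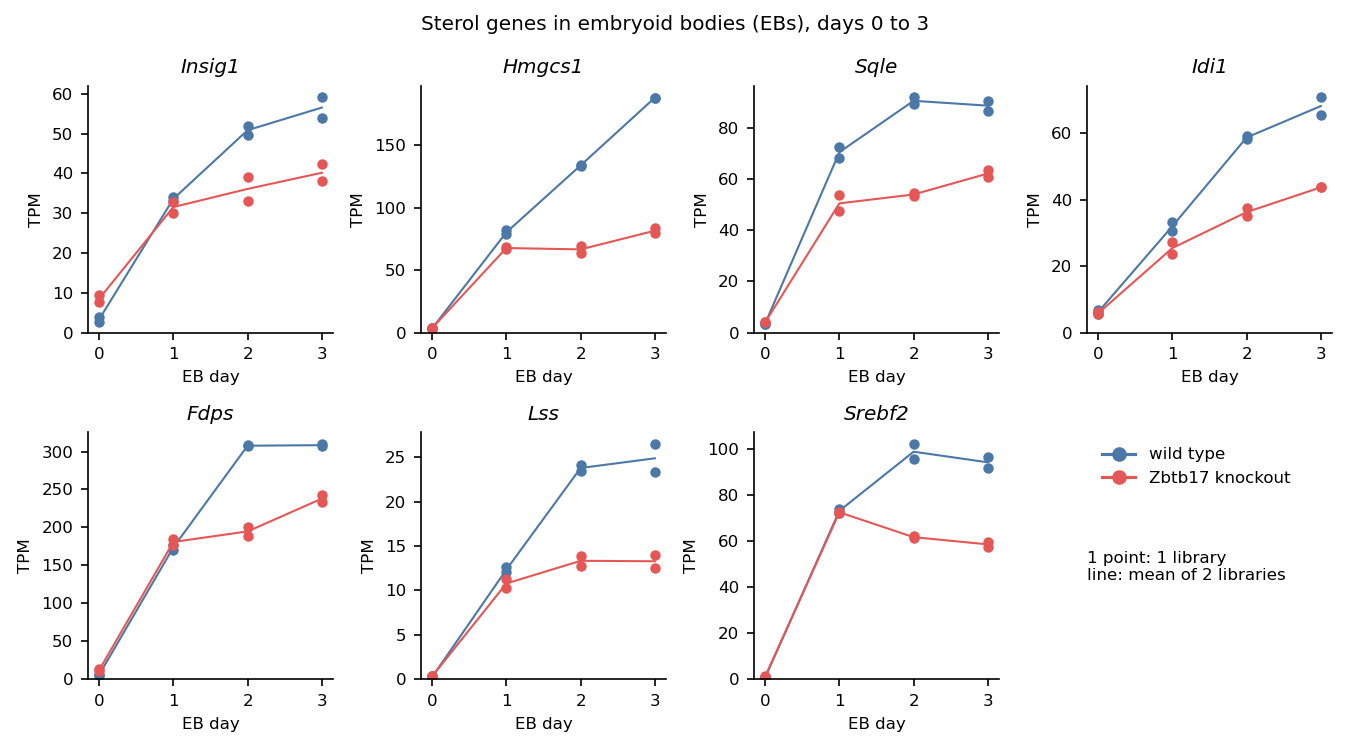
TPM of each of the 7 genes in wild-type (blue) and Zbtb17 knockout (red) EBs on days 0 to 3. Points are libraries, lines join means of 2 libraries and axes start at 0. On days 2 and 3 the red points lie below the blue for all 7 genes, and on day 0 all values are under 13 TPM.

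Day 0 was unlike the other days. All 7 genes were under 13 TPM in all 4 day 0 libraries, Pou5f1, the pluripotency factor, was at 13.4 to 21.5 TPM against 2336 to 2443 TPM in wild type on day 1, and the 10 most abundant genes held 33.2% to 36% of TPM. Each of the 7 passed as higher in wild type on days 1, 2 and 3 than on day 0 without further scaling, but 97.6%, 97.5% and 97.7% of tested genes passed on those days, 91.4%, 90.7% and 90.4% as higher, with a median of 2.80. Lss at 0.168 and 0.294 TPM and Srebf2 at 0.422 and 0.811 TPM were below the 1 TPM filter in wild type on day 0. They entered these tests only through the later days. After quantile normalization that median was 0.38 to 0.44, and Idi1 and Insig1 turned lower on day 1 (-1.27 and -0.57) and Idi1 on days 2 and 3 (-0.35 and -0.09), so the direction from day 0 depends on the scaling for those genes. In the knockout on day 0, Insig1 at 7.61 and 9.39 against 3.93 and 2.7 TPM (log2 1.15) and Fdps at 10.7 and 12.7 against 5.54 and 5.82 TPM (log2 0.93) were higher, 2 of 5 tested, with 59.8% of 6864 genes called and 47.8% called higher. From day 1 to day 3 in wild type Hmgcs1 went from 81.8 and 78.6 to 188 and 188 TPM, Lss from 12.1 and 12.6 to 23.3 and 26.5 TPM and Idi1 from 33.4 and 30.7 to 71 and 65.4 TPM, differences between days that were not tested. The knockout effect differed from that of day 0 for 4 genes on day 1, 7 on day 2 and 7 on day 3, in each case as a lower value, against 36.3%, 44.8% and 53.4% of all genes in either direction and 28%, 33.1% and 39.3% in that direction. Here too Lss and Srebf2 were tested only through the later days.

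Across the screen, 54 of 273 tests of a gene in a knockout passed, 25 higher and 29 lower. Over all genes and knockouts together 10.1% of tests passed, with 5.04% higher and 5.09% lower. Insig1 passed most often, higher in 11 knockouts and lower in 4. Fdps was higher in 5 and lower in 8, Lss higher in 3 and lower in 4, Sqle higher in 4 and lower in 3, Hmgcs1 higher in 2 and lower in 3, Srebf2 lower in 5 and Idi1 lower in 2. Of 39 knockouts tested, 13 had no gene called, 11 had 1 and 15 had at least 2, and knockouts of a batch share its controls. The Aurkb libraries were near-identical (at least 0.998 correlated), so they gave values only, with Insig1 at 65.0 to 72.1 TPM and Fdps at 396 to 415 TPM. Of the 54 calls, 21 held in every setting run. Screen fits described as without a numbered control or knockout left out that replicate number in every batch at once. No screen library was left out alone.

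The genes fell most in Bend3 knockouts of batch 8, whose mean log2 change over the 7 was -1.02, with 5 lower against 28.6% of 10053 genes called and 13.3% called lower. Bend3 is a chromatin protein that binds DNA and represses transcription. Srebf2 was at 25.1, 7.75 and 14.2 TPM in the batch controls and 2.83, 1.93 and 1.93 TPM in the knockout (log2 -2.24, SE 0.445, limma adjusted p = 3.11e-05). Lss was at 9.83, 15.8 and 16.6 TPM and then 3.46, 4.09 and 3.5 TPM (log2 -1.66), Sqle at 127, 129.7 and 132 TPM and then 64.7, 42.9 and 46.5 TPM (log2 -1.34) and Hmgcs1 at 108, 126 and 74.6 TPM and then 42.3, 41.3 and 37.3 TPM (log2 -1.30). Fdps was at 646, 729.8 and 609 against 419, 409.7 and 436 TPM (log2 -0.64). For all 5 the groups were apart, whereas Insig1, at 37.8, 31.4 and 30.1 against 58.1, 27.1 and 30.9 TPM, overlapped. The share of all genes with groups apart was not counted. Of these 5 calls only that of Lss was lost in any setting run, with the replicate number as a block (limma adjusted p = 0.0651). These libraries held less trophectoderm signal, with Elf5 at 0 to 0.241 TPM in the controls, and summed trophectoderm markers were at 191 to 215 TPM in knockouts and 334 to 527 TPM in controls, whose part was not tested.

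In batch 7 libraries labelled Bend3 knockout, 3 of 7 passed as lower, against 38.8% of 9122 genes called and 28.2% called lower. Srebf2 was at 53.3 and 35.8 TPM in 2 controls and 9.52, 0.106 and 25.8 TPM in knockouts (log2 -2.72, SE 0.498, limma adjusted p = 5.13e-06). Lss was at 18.4 and 16.7 against 9.67, 6.4 and 6.81 TPM (log2 -1.12). Insig1 was at 37.1 and 27.2 against 21.6, 10.7 and 27.5 TPM (log2 -0.74), with an overlap. Srebf2 and Lss were thus lower in libraries labelled Bend3 knockout of both batches, but batch 7 libraries had only 7236 to 8383 genes at 1 TPM and replicates that correlated at 0.804 to 0.869, and Bend3 RNA was higher there in the knockout. In a fit of the batch 7 libraries alone all 3 calls were lost (limma adjusted p 0.465 to 0.728).

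The highest mean change, 0.62, was in the Ets2 knockout, with 4 genes higher against 23.4% of 10069 genes called and 11.5% called higher. Ets2 is a transcription factor of trophoblast. Ets2 RNA was at 2.01 to 12.9 TPM in libraries so labelled against 10.3 to 14.4 TPM in controls (limma adjusted p = 0.0903). Hmgcs1 rose from 53.8, 47.7 and 42.5 to 85.3, 133 and 119 TPM (2.34-fold, log2 1.19, SE 0.247, limma adjusted p = 8.32e-05). Insig1 rose from 111, 142 and 135 to 223, 207 and 222 TPM (log2 0.75), Fdps from 284, 193 and 287 to 344, 369 and 409 TPM (log2 0.57) and Lss from 2.82, 2.98 and 6.23 to 13.3, 7.14 and 9.6 TPM (log2 1.16). None of the 4 overlapped the controls, and the share of all genes without overlap was not counted. Summed PrE markers were at 294 to 313 TPM in controls and 1046 to 1190 TPM in this knockout, and trophectoderm markers at 4468 to 4659 and 8487 to 9461 TPM, whose part was not tested. In the same batch and against the same controls, the Suz12 knockout had Insig1 at 345, 374 and 322 TPM (log2 1.42), Fdps at 402, 429.8 and 461 TPM (log2 0.78) and Hmgcs1 at 88.8, 83.9 and 62.1 TPM (log2 0.68), with 21.9% of 11057 genes called and 14.5% called higher. Insig1 was thus 2.68-fold higher here, and had an estimate of -0.04 in Epi of the Suz12 Eed table, whose libraries were normalized separately. The Lss call of the Ets2 knockout was lost without control 1 or 2 or knockout 1 (limma adjusted p 0.0803 to 0.101), its Insig1 call without control 1 (0.0742), and the Hmgcs1 call of the Suz12 knockout without control 2 or 3 or knockout 1 or 2 (0.0594 to 0.172). In a fit of the Ets2 libraries and their controls alone the Fdps (limma adjusted p = 0.0635) and Lss (0.222) calls were lost. The Lss call was also lost with the replicate block (0.313) and after quantile normalization (0.0517). Summed trophectoderm markers reached 16657.5 to 17119.8 TPM in the Suz12 knockout.

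Insig1 gave the single largest rise in the screen, in the Elf5 knockout. It was at 428, 406 and 494 TPM against 111, 142 and 135 TPM (3.42-fold, log2 1.77, SE 0.229, limma adjusted p = 5.24e-10). Fdps was lower in this knockout (log2 -0.39), a call lost without control 1 or 3 or knockout 1 (limma adjusted p 0.108 to 0.201), and 25% of 10116 genes were called, 11.4% higher and 13.7% lower. That Fdps call was also lost in a fit of these libraries and their controls alone (limma adjusted p = 0.245). Insig1 also rose in the libraries labelled Nelfb knockout (a pausing factor of RNA polymerase II), from 134, 138 and 152 to 381, 337 and 375 TPM (2.58-fold, log2 1.36), where Fdps fell (log2 -0.49) and 21.4% of 10370 genes were called, 11.7% higher and 9.7% lower. Nelfb RNA itself was at 13.8 to 26.7 against 9.99 to 12.5 TPM, higher in every library so labelled (limma adjusted p = 0.298). PrE markers were at 2276 to 2380 TPM in the libraries labelled Nelfb knockout against 356 to 410.5 TPM in its controls, and at 762 to 900.1 against 294 to 313 TPM with Elf5, whose part was not tested.

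In batch 4 the Tfap2c, Kdm6a and Otx2 knockouts each had at least 2 calls. With Tfap2c, an AP-2 factor of trophoblast, knocked out, Insig1 fell from 178, 165 and 147 to 73, 89.2 and 70.3 TPM (log2 -1.07, SE 0.229, limma adjusted p = 0.000287) while Sqle (log2 0.81) and Fdps (log2 0.44) rose, with 13.5% of 10467 genes called, 8.21% higher and 5.28% lower. In libraries labelled Kdm6a knockout (an H3K27 demethylase), Sqle rose from 47.8, 50.0 and 44.6 to 111, 149 and 113 TPM (2.62-fold, log2 1.36, SE 0.277, limma adjusted p = 0.000191), and Fdps (log2 0.51) and Lss (log2 1.11) rose too, with 9.29% of 10275 genes called, 5.56% as higher. The Sqle call of the Tfap2c knockout was lost when any control or knockout replicate number was left out (limma adjusted p 0.0506 to 0.128). The Lss call of the Kdm6a knockout was lost without control 1 or 2 or any knockout number (limma adjusted p 0.0533 to 0.193). Libraries labelled Otx2 knockout had Insig1 and Idi1 lower (log2 -0.73 and -0.77), with 4.42% of 10096 genes called (2.89% lower). Both calls were lost in most fits without 1 replicate number (limma adjusted p 0.0533 to 0.248). Otx2 RNA was at 1.83 to 4.74 against 2.58 to 5.32 TPM in controls (limma adjusted p = 0.916). Summed PrE markers were at 96.1 to 136 TPM in Tfap2c knockouts and 154 to 161 TPM in Kdm6a knockouts, against 185 to 209.7 TPM in controls.

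In batch 5 Lss, Srebf2 and Sqle were lower. The controls there had Srebf2 at 6.6, 5.79 and 2.83 TPM and Lss at 5.82, 11.1 and 11 TPM. Srebf2 was at 0.755 to 1.15 TPM with Ezh2 (the PRC2 methyltransferase) knocked out, 1.2 to 1.93 TPM in libraries labelled Kdm6b knockout and 1.38 to 1.58 TPM with Zfp57 knocked out (log2 -1.63, -1.19 and -1.23). Kdm6b RNA was at 2.85 to 6.12 TPM in its libraries against 2.95 to 15.4 TPM in controls (limma adjusted p = 0.219). Lss was lower in Ezh2 and Zfp57 knockouts (log2 -1.39 and -1.35) and Sqle in Kdm6b and Zfp57 knockouts (log2 -0.99 and -0.77). Insig1 passed as higher in libraries labelled Ezh2 (log2 1.06) or Kdm6b (log2 1.05) knockout, but its controls were spread over 48.6, 116 and 31.2 TPM and overlapped both. All 3 knockouts share these controls, 26.9% of 10338, 22.7% of 9948 and 16.8% of 10191 genes were called in the Ezh2, Kdm6b and Zfp57 knockouts (12.3% and 5.95% higher in the first pair and 14.5%, 16.7% and 11.5% as lower), and in a fit of each knockout with its controls alone 8 of the 9 calls were lost (limma adjusted p 0.105 to 0.285).

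In the batch 6 libraries labelled Zbtb17 knockout Hmgcs1 fell from 128, 107 and 112 to 44.8, 37.5 and 11.2 TPM (3.71-fold lower, log2 -2.07, SE 0.247, limma adjusted p = 1.94e-11), the largest fall of that gene in the screen. Sqle at 204, 151 and 88.4 against 70.2, 102 and 73.3 TPM (log2 0.79) and Lss at 50.0, 32.5 and 9.17 against 8.44, 8.34 and 5.51 TPM (log2 1.64) were higher, with 30.4% of 9815 genes called, 10.5% higher and 19.9% lower. Knockout library 3 had the lowest values of all 3 genes in the knockout. The Sqle call was lost without control 1 or 3 or knockout 1 or 2 (limma adjusted p 0.0734 to 0.208), and both the Sqle and the Lss call in a fit of these libraries alone (0.205 and 0.203). Replicates of this knockout correlated at 0.83 to 0.871, summed trophectoderm markers were at 12183 to 14528 TPM against 3667 to 4484 TPM in controls, and Zbtb17 RNA, at 0.0122 to 14.2 against 0.312 to 4.21 TPM, did not pass (limma adjusted p = 0.487). In the other Zbtb17 tables Hmgcs1 was lower in EBs labelled knockout on days 1 to 3, was at 44.4 to 59.3 against 38.6 to 64.7 TPM with dTAG, and at E4.5 was at 159.8 to 219 against 67.9 to 83.1 TPM, 2.55-fold higher without overlap (limma adjusted p = 0.328). In libraries labelled Gtf2b knockout (a general transcription factor), whose Gtf2b RNA was at 10.1 to 26.4 against 19.5 to 34.7 TPM (limma adjusted p = 0.214), Hmgcs1 (log2 -1.16) and Fdps (log2 -0.70) were lower, with 15.4% of 10735 genes called and 4.98% called lower. In libraries labelled Lmo2 knockout Insig1 (log2 0.88, lost without control 1 or knockout 1) and Fdps (log2 0.73) were higher, with 5.11% of 10421 genes called and 2.47% called higher. Lmo2 RNA, at 0 to 0.348 against 0 to 1.66 TPM in controls, was too low to be tested.

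**Figure D5:**
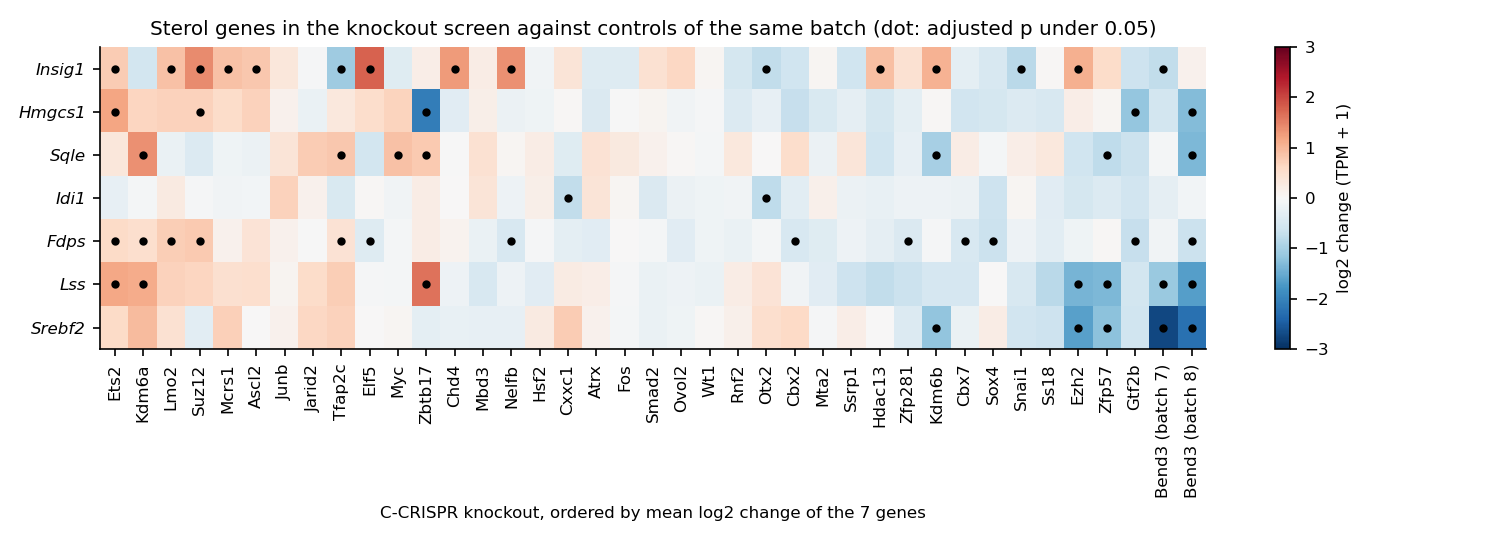
Log2 change on the TPM + 1 scale (colour, from -3 to 3) of the 7 genes in 39 knockouts against controls of their own batch, ordered by the mean over the 7 genes. Dots mark an adjusted p under 0.05. Insig1 has 15 dots, and the Bend3 knockout of batch 8 has the lowest mean, -1.02.

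Levels of the 7 genes also differed between batches of controls. The batch means of controls ranged 11.6-fold for Insig1, 11.4-fold for Sqle and 21.5-fold for Srebf2, whose median over 29 control libraries was 3.47 TPM and whose highest was 53.3 TPM, in batch 7. Fdps was the most abundant, with a median of 475 TPM and a range of 147 to 900.1 TPM. Within batches, centred over 146 libraries, the genes were loosely tied. Sqle and Lss, and Fdps and Lss, correlated at 0.44 (Pearson), the highest of 21 pairs, and the median pair at 0.27. Insig1 was the least tied, at -0.14 (with Sqle) to 0.24 (with Idi1). Among 7347 other genes, those closest to the mean of the 7 were Msmo1 and Cyp51 at 0.59 and Fdft1 at 0.54, all sterol enzymes, then Mcm7 (replication), Rnps1 (splicing) and Cct3 (protein folding) at 0.54. Soat1 was at -0.15. These are descriptions over libraries that share depth, batch controls and cell makeup.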

How the data were processed

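The authors deposited tables of TPM. The submitters' processing notes name HISAT2 2.2.1, StringTie 2.2.1, Cufflinks and the mm10 build, without roles or order. Columns summed to 984852 to 993453 TPM. Without counts, a library's depth and counting error are unknown. The EB table has no gene column and was read in the row order of the screen table (correlation across genes of 0.893, and at most 0.112 when shifted).

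The 7 genes, the lists and the tests were chosen with earlier results of these data known. A gene was tested where the number of libraries at 1 TPM or more was no lower than the size of the smaller group. A gene could thus enter a test through only the group where it is high. Tests used limma 3.58.1 (trend) in R 4.3.3 on log2(TPM + 1), with Benjamini-Hochberg adjustment over all genes of a comparison and a threshold of 0.05. The Suz12 Eed, EB and screen tables each had 1 fit, and differences between tissues or days were interaction terms. P-values measure the spread between libraries, which may be technical. Where groups are said not to overlap, the share of all genes without overlap was not counted. The script was tested on simulated data. Other genes were named by smallest adjusted p within lists, and knockouts by at least 2 calls or an extreme mean change. Same-numbered libraries were checked for shared deviations in 52 comparisons. In 1 of them, Suz12 Eed in Epi, all 3 pairs correlated above 0.1 (0.10 to 0.24), and those numbers were taken as pairs from the data, not the labels. Figures were drawn with matplotlib 3.10.9. Some genes of the lists are counted but not reported here by name.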

Additional observations from a re-analysis of the deposited data

Results flagged for a closer look

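In the Suz12 Eed table the effect of the knockout differed between PrE and Epi by an interaction term in limma. The difference, PrE minus Epi, was -2.27 for Insig1 (adjusted p = 0.0012), 2.12 for Srebf2 (adjusted p = 0.00728) and 1.97 for Lss (adjusted p = 0.0285).

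In EBs the Zbtb17 effect on later days differed from that on day 0. On day 1 the difference was -1.24 for Insig1 (limma adjusted p = 0.000384), -0.87 for Fdps (3.23e-05), -0.61 for Sqle (0.000293) and -0.32 for Hmgcs1 (0.0261). On day 2 all 7 genes passed, at -1.64 for Insig1, -1.58 for Fdps, -1.08 for Hmgcs1, -1.03 for Srebf2, -0.89 for Lss, -0.87 for Sqle and -0.61 for Idi1. On day 3 all 7 passed again, at -1.63 for Insig1, -1.30 for Fdps, -1.27 for Hmgcs1, -1.04 for Srebf2, -0.95 for Lss, -0.64 for Sqle and -0.56 for Idi1. The share of all genes that passed was 36.3%, 44.8% and 53.4% on days 1, 2 and 3. The Hmgcs1 difference on day 1 was -0.04 after quantile normalization (limma adjusted p = 0.798) and did not pass with the replicate block (0.118) or without wild-type library 2 or knockout library 2 of day 0, wild-type library 1 of day 1 or knockout library 2 of day 1 (0.0596 to 0.086). The Idi1 difference on day 3 was -0.32 after quantile normalization (0.0572). These differences share the day 0 libraries, in which the genes were under 13 TPM. Lss and Srebf2 were too low on day 0 to be tested there and entered only through the later days.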

How the results depend on the processing

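Of 129 calls on the 7 genes, 76 held in every setting run. Counts of called genes that moved by over 1.5 times were as follows. For Suz12 Eed in Epi (1), 0 passed with a pseudocount of 0.1, without the filter or in a fit of those libraries alone, 2 after quantile normalization, 3 with near-identical libraries kept apart and 2 with the replicate block. For the difference between tissues (3), 5 passed with libraries kept apart and 5 with the replicate block, which also kept them apart. For dTAG (1), 0 passed without the filter and 0 after quantile normalization. For EBs on day 0 (2), 4 passed after quantile normalization. The replicate block moved no other count by over 1.5 times. Directions reversed after quantile normalization for Idi1 on days 1, 2 and 3 against day 0 (-1.27, -0.35 and -0.09), Insig1 on day 1 (-0.57) and Hmgcs1 in the day 0 knockout (-0.18). The cause was not tested.

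Leaving out 1 library gave 2 to 5 called genes for GSK-J4 at E5.0, 0 to 1 for Suz12 Eed in Epi, 2 to 3 in PrE, 2 to 4 for their difference, 4 to 6 for PrE against Epi, 0 to 2 for dTAG, 2 to 4 for EBs on day 0, 1 to 3 on day 1 and 6 to 7 on days 2 and 3. In the screen, leaving out 1 numbered replicate gave 36 to 45 calls against 54. Without batch 7, a fit chosen after seeing the data, there were 55, to be set against the 51 of the 54 in other batches. All 51 held. TPM without counts gives no depth, so values near 1 TPM, as for Srebf2 in PrE, have unknown counting error.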
